A study of Mus musculus with 10 samples.

Results

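The chemokine ligand genes described here are Ccl3, Ccl4, Ccl5, Ccl6, Ccl9, Ccl17, Ccl22, Cxcl9, Cxcl10 and Cxcl16, a set of 10 listed by name and taken from the 53379 genes counted in each library. All 10 were matched to Ensembl identifiers, and 9 passed the filter on low counts. Expression was measured by RNA sequencing of dendritic cells from the spleens of C57BL/6 mice aged 16 weeks. The cells had been enriched on CD11c beads and sorted as high for MHC class II and CD11c, then as CD11b+ CD8- or CD11b- CD8+. The mice were Atg16l1 +/+ (WT) or Atg16l1 -/- (KO), and each label had 3 WT libraries and 2 KO libraries, which makes 4 groups named here by label and genotype. The labels describe spleens of individual mice, name no further allele or treatment, and give neither the deleted part of Atg16l1 nor a promoter or Cre. The series title refers to atherogenesis, and no diet is given for these mice. Whether a CD11b and a CD8 library of the same number came from 1 mouse is not stated.

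Chemokines are small secreted proteins that bind receptors on leukocytes and direct where those cells move. Dendritic cells use them to bring T cells and natural killer cells to the places where antigen is presented. CXCL9 and CXCL10 are interferon-induced ligands of CXCR3, CXCL16 is a membrane-bound ligand of CXCR6 that can be shed, and CCL17 and CCL22 are ligands of CCR4. CCL3, CCL4 and CCL5 are inflammatory chemokines that attract T cells and monocytes. CCL6 and CCL9 are mouse CC chemokines that act through CCR1. Atg16l1 encodes a scaffold that directs the attachment of LC3 to membranes during autophagy.

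Most of these genes lie in clusters. In GRCm38, Ccl5 (chr11:83525778-83530518), Ccl9 (chr11:83572919-83578636), Ccl6 (chr11:83587882-83593087) and Ccl3 (chr11:83647844-83649355) lie on the minus strand, and Ccl4 (chr11:83662584-83664683) follows on the plus strand. Cxcl16 (chr11:70453983-70459984, minus strand) lies apart from that cluster on the same chromosome. Cxcl9 (chr5:92321347-92328079) and Cxcl10 (chr5:92346638-92348889) are neighbours on the minus strand with a gap of 18.6 kb. Ccl22 (chr8:94745590-94751699) and Ccl17 (chr8:94810453-94812036) are neighbours on the plus strand with a gap of 58.8 kb.

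The 250 bases before the start site are shown for both pairs of neighbours whose label effects are set side by side further on, Cxcl9 with Cxcl10 and Ccl9 with Ccl6. The sequences are RefSeq's for GRCm38.p6, read 5′ to 3′ on the minus strand of each gene. They cover chr5:92328080-92328329 for Cxcl9, chr5:92348890-92349139 for Cxcl10, chr11:83578637-83578886 for Ccl9 and chr11:83593088-83593337 for Ccl6. Capitals mark letters that match 1 of 6 searched motifs on either strand.
Cxcl9: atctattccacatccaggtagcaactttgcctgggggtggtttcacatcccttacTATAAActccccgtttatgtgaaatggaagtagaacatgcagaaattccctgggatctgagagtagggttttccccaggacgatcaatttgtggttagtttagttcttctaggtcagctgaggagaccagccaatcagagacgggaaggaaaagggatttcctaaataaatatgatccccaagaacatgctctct
Cxcl10: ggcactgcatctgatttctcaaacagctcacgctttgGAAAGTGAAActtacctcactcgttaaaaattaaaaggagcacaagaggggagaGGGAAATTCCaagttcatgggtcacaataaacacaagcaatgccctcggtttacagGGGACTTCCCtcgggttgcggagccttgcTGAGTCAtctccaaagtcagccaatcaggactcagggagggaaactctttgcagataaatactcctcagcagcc
Ccl9: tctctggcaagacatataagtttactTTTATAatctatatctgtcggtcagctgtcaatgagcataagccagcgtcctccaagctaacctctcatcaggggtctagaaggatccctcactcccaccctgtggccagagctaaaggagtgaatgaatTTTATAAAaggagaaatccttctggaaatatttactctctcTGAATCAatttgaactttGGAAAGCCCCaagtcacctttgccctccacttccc
Ccl6: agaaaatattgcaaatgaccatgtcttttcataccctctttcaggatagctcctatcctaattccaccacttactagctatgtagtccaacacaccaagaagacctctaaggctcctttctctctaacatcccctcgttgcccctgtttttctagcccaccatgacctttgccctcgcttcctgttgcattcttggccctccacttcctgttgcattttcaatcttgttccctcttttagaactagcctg

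The motifs were the TATA box TATAAA (present in 12.4% of 32851 promoter windows of this length), the interferon-stimulated response element (GAAA, any 2 bases, GAAA; 2.98%), the gamma-activated site TTCNNNGAA (7.02%), the AP-1 site TGANTCA (6.75%), the ETS-IRF composite (GGAA, any 2 bases, GAAA; 2.3%) and the NF-kappaB consensus (3.9%). The Cxcl10 window held 4 matches, which were 1 interferon-stimulated response element, 1 AP-1 site and 2 NF-kappaB matches. The Cxcl9 window held 1 match, a TATA box 195 bases before the start. The Ccl9 window held 5 matches, which were 3 TATA boxes (a same-strand and an opposite-strand match share bases), 1 AP-1 site and 1 NF-kappaB match, while the Ccl6 window held 0. Of the other windows in the table, Ccl17 held 1 match (a gamma-activated site) and Ccl3 and Ccl22 held 0. A match describes letters only and is no measure of binding.

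The libraries held 9467704 to 13768884 gene counts each. Atg16l1 stood at 24.0, 32.6 and 13.3 CPM (reads of a gene scaled to the library's total, by TMM library sizes) in CD11b WT 1 to 3 and at 19.5, 15.2 and 17.5 CPM in CD8 WT 1 to 3. It stood at 3.02 and 1.83 CPM in CD11b KO 1 and 2 and at 1.73 and 3.30 CPM in CD8 KO 1 and 2, so every KO library lay below every WT library. The subset labels ran opposite to the sorting markers in 10 of 10 libraries. Libraries labelled CD11b had 448 to 577 CPM of Cd8a, 289.5 to 441 CPM of Xcr1 and 539.6 to 666 CPM of Clec9a, markers of type 1 conventional dendritic cells, and 1.58 to 2.73 CPM of Itgam, which encodes CD11b. Libraries labelled CD8 had 0.904 to 5.86 CPM of Cd8a and 75.9 to 104 CPM of Itgam, and Sirpa, a marker of type 2 conventional dendritic cells, stood at 552 to 628 CPM there. The labels were kept as deposited, and each direction below is between libraries labelled CD11b and libraries labelled CD8. In bulk libraries, fewer cells that make a transcript and less of it per cell cannot be told apart.

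The first comparison asks which chemokine ligands differ between the labelled subsets. In WT, 3 of the 9 tested genes were higher at the label CD11b (Cxcl9, Ccl22 and Cxcl16) and 4 were lower (Ccl9, Ccl3, Ccl6 and Ccl5) at an adjusted p under 0.05 by edgeR's quasi-likelihood test. Of all 14528 genes tested, 29.7% were called in that comparison, 13.9% higher and 15.8% lower, and 19.8% were higher and 21.7% lower in every library labelled CD11b. In KO, 2 of the 9 were higher (Cxcl9 and Cxcl16) and the same 4 were lower, against 23.1% of all genes called (10.5% higher and 12.5% lower). In KO, with 2 libraries a group, 28.1% of all genes were higher and 30.6% lower in every library labelled CD11b. The median log2 fold change of the 9 genes was 0.36 in WT and −0.40 in KO, and that of all genes tested was 0.0032 and −0.0078. The 9 genes ran both ways, and both of their medians are the value of Ccl4, which was called in neither genotype. Every ligand called in both genotypes kept its direction. The WT and KO comparisons share no libraries, but both use the estimate of spread and the scaling from the fit of all 10 libraries.

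**Figure D1:**
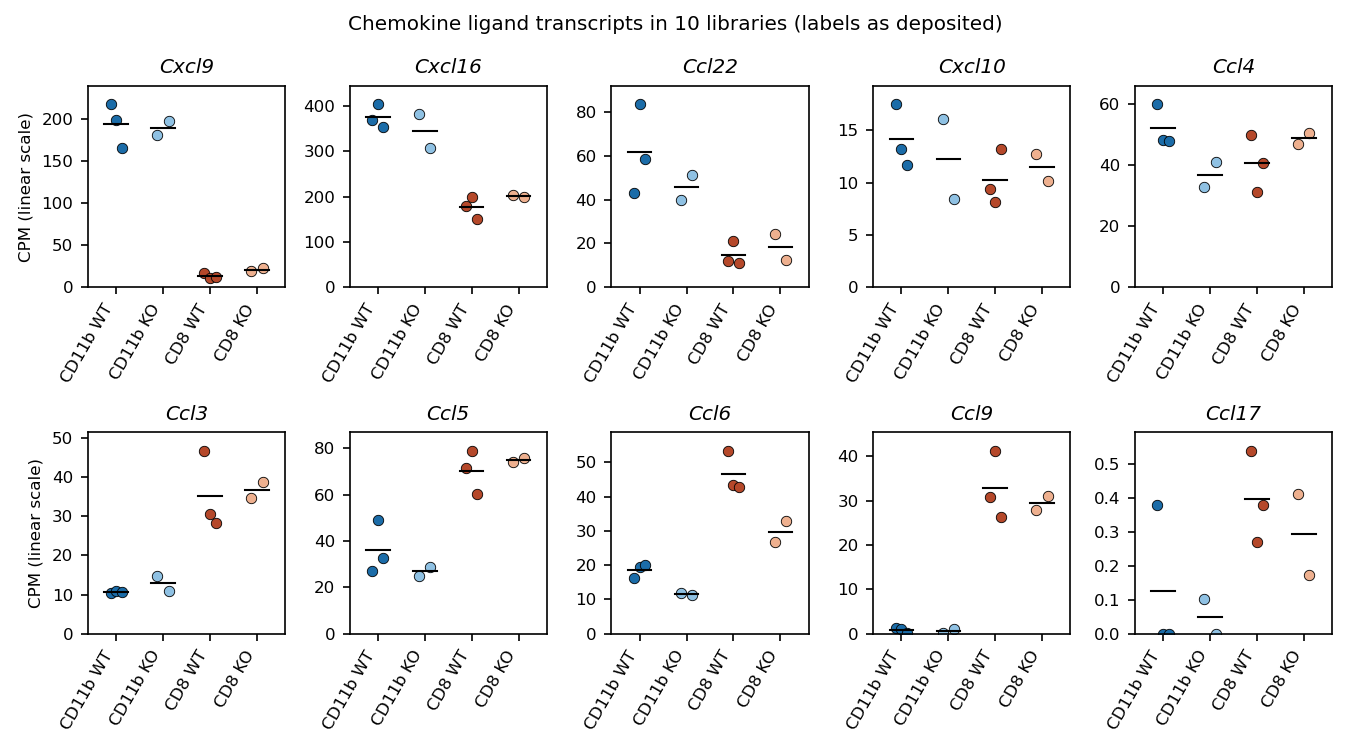
CPM of the 10 chemokine ligand genes on linear axes that start at 0, with 1 point per library and a bar at the mean of each of the 4 groups. Cxcl9, Cxcl16 and Ccl22 sit higher in the libraries labelled CD11b, and Ccl3, Ccl5, Ccl6 and Ccl9 sit higher in those labelled CD8.

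Among the ligands of CXCR3, the neighbours Cxcl9 and Cxcl10 had different patterns. Cxcl9 stood at 217, 199 and 165 CPM in CD11b WT 1 to 3 and at 17.0, 11.2 and 11.7 CPM in CD8 WT 1 to 3. In KO it stood at 180.0 and 197 CPM in CD11b KO 1 and 2 and at 18.7 and 23.0 CPM in CD8 KO 1 and 2. All 5 libraries labelled CD11b lay above all 5 labelled CD8. The transcript was 14.6-fold higher at the label CD11b in WT (a log2 difference of 3.87 with an SE of 0.15, edgeR adjusted p = 6.43e-18) and 9.04-fold higher in KO (3.18 ± 0.18, edgeR adjusted p = 2.73e-14).

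Cxcl10 stood at 17.5, 13.3 and 11.7 CPM in CD11b WT 1 to 3 and at 9.38, 8.13 and 13.2 CPM in CD8 WT 1 to 3. Its KO libraries had 16.1 and 8.48 CPM at the label CD11b and 12.7 and 10.2 CPM at the label CD8. The groups overlapped in both genotypes, and the label effect did not pass the test in WT (log2 fold change 0.47 ± 0.29, edgeR adjusted p = 0.259) or in KO (0.10 ± 0.36, edgeR adjusted p = 0.903). The 95% interval of the WT effect ran from −0.13 to 1.07, so a rise of up to 2.09-fold lies inside it. Art3 lies over Cxcl10 on the opposite strand, and 0.0722% of the reads on Cxcl10 fell on that strand.

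Cxcl16, the membrane-bound ligand of CXCR6, gave the most reads of the set, with 49.3% of the reads of the 10 genes in CD11b WT and 40.0% in CD8 WT. It stood at 369.5, 404 and 354 CPM in CD11b WT 1 to 3 and at 179.9, 199.6 and 150.5 CPM in CD8 WT 1 to 3. In KO it stood at 381 and 308 CPM in CD11b KO 1 and 2 and at 203 and 199 CPM in CD8 KO 1 and 2. Every library labelled CD11b lay above every library labelled CD8. The difference was 2.13-fold in WT (log2 fold change 1.09 ± 0.10, edgeR adjusted p = 1.83e-10) and 1.71-fold in KO (0.78 ± 0.12, edgeR adjusted p = 6.99e-06).

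Ccl22, a ligand of CCR4 on regulatory and type 2 helper T cells, stood at 43.2, 83.7 and 58.5 CPM in CD11b WT 1 to 3 and at 12.2, 21.1 and 11.1 CPM in CD8 WT 1 to 3. The WT groups did not overlap, and the transcript was 4.17-fold higher at the label CD11b (log2 fold change 2.06 ± 0.36, edgeR adjusted p = 0.0017). In KO it stood at 40.0 and 51.6 CPM in CD11b KO 1 and 2 and at 24.3 and 12.3 CPM in CD8 KO 1 and 2. Those groups did not overlap either, and the effect of 1.33 ± 0.43 missed the threshold (edgeR adjusted p = 0.056). It passed with DESeq2 (adjusted p = 0.0404) and with limma-voom (adjusted p = 0.00112), and in 12 of 20 alternative settings in all. In the other 8 it missed. With 1 library left out, the effect spanned 0.92 to 1.90.

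Ccl17, the neighbour of Ccl22 and also a ligand of CCR4, was at the limit of detection. It had 25 counts over all 10 libraries, with 5, 0 and 0 counts in CD11b WT, 1 and 0 in CD11b KO, 5, 3 and 4 in CD8 WT and 5 and 2 in CD8 KO. A count of 0 allows up to 3 counts, which is 0.226 to 0.279 CPM in the CD11b WT libraries at 0 and 0.250 CPM in CD11b KO 2. Another 19 reads, 43.2% of the total for both strands, lay on the opposite strand of Ccl17. The gene did not pass the filter and was not tested.

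The CC cluster of chromosome 11 ran mostly the other way. Ccl9, also called MIP-1 gamma, stood at 1.21, 1.13 and 0.0929 CPM (16, 15 and 1 counts) in CD11b WT 1 to 3 and at 30.7, 41.2 and 26.4 CPM in CD8 WT 1 to 3. It stood at 0.101 and 0.998 CPM (1 and 12 counts) in CD11b KO 1 and 2 and at 27.8 and 31.1 CPM in CD8 KO 1 and 2. The transcript was 38.3-fold lower at the label CD11b in WT (log2 fold change −5.26 ± 0.48, edgeR adjusted p = 1.77e-07) and 49.6-fold lower in KO (−5.63 ± 0.62, edgeR adjusted p = 2.86e-06). The low counts at the label CD11b make the size imprecise, with 95% intervals from −6.28 to −4.24 in WT and from −6.96 to −4.31 in KO. With 1 library left out, the KO effect spanned −8.05 (without CD11b KO 2) to −4.86 (without CD11b KO 1).

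Its nearest neighbour Ccl6, at a gap of 9.24 kb, was present under both labels. Ccl6 stood at 16.1, 19.6 and 20.0 CPM in CD11b WT 1 to 3 and at 53.4, 43.3 and 42.7 CPM in CD8 WT 1 to 3. In KO it stood at 11.9 and 11.1 CPM in CD11b KO 1 and 2 and at 26.7 and 32.8 CPM in CD8 KO 1 and 2. Each label's libraries stayed apart, and Ccl6 was 2.502-fold lower at the label CD11b in WT (log2 fold change −1.32 ± 0.19, edgeR adjusted p = 7.45e-07) and 2.58-fold lower in KO (−1.37 ± 0.23, edgeR adjusted p = 2.78e-05).

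The inflammatory ligands of the same cluster split. Ccl3, also called MIP-1 alpha, stood at 10.4, 10.8 and 10.6 CPM in CD11b WT 1 to 3 and at 46.8, 30.6 and 28.2 CPM in CD8 WT 1 to 3, a log2 fold change of −1.73 ± 0.22 (edgeR adjusted p = 1.03e-07). Its KO libraries had 14.8 and 10.98 CPM at the label CD11b and 34.6 and 38.9 CPM at the label CD8, a log2 fold change of −1.51 ± 0.26 (edgeR adjusted p = 3.62e-05). Ccl3 was thus nearly level over the CD11b WT libraries, and CD8 WT 1 stood above the other libraries.

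Ccl4, also called MIP-1 beta and separated from Ccl3 by 13.2 kb, stood at 59.9, 48.1 and 48.0 CPM in CD11b WT 1 to 3 and at 49.9, 31.0 and 40.8 CPM in CD8 WT 1 to 3. In KO it stood at 32.8 and 40.8 CPM in CD11b KO 1 and 2 and at 47.0 and 50.3 CPM in CD8 KO 1 and 2. The WT groups overlapped and the KO groups did not, and neither effect passed the test (log2 fold change 0.36 ± 0.16 in WT, edgeR adjusted p = 0.0989, and −0.40 ± 0.20 in KO, edgeR adjusted p = 0.168). With 1 library left out, the WT effect spanned 0.21 to 0.55 and the edgeR adjusted p ran from 0.0183 to 0.422. Leaving out CD8 WT 1 (0.55) was the 1 of 20 alternatives in which it passed.

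Ccl5, also called RANTES, stood at 26.9, 49.0 and 32.6 CPM in CD11b WT 1 to 3 and at 71.5, 79.0 and 60.4 CPM in CD8 WT 1 to 3. In KO it stood at 24.98 and 28.8 CPM in CD11b KO 1 and 2 and at 74.3 and 75.9 CPM in CD8 KO 1 and 2. All libraries labelled CD11b lay below all those labelled CD8, by 1.94-fold in WT (log2 fold change −0.96 ± 0.17, edgeR adjusted p = 5.35e-05) and by 2.79-fold in KO (−1.48 ± 0.21, edgeR adjusted p = 3.56e-06).

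**Figure D2:**
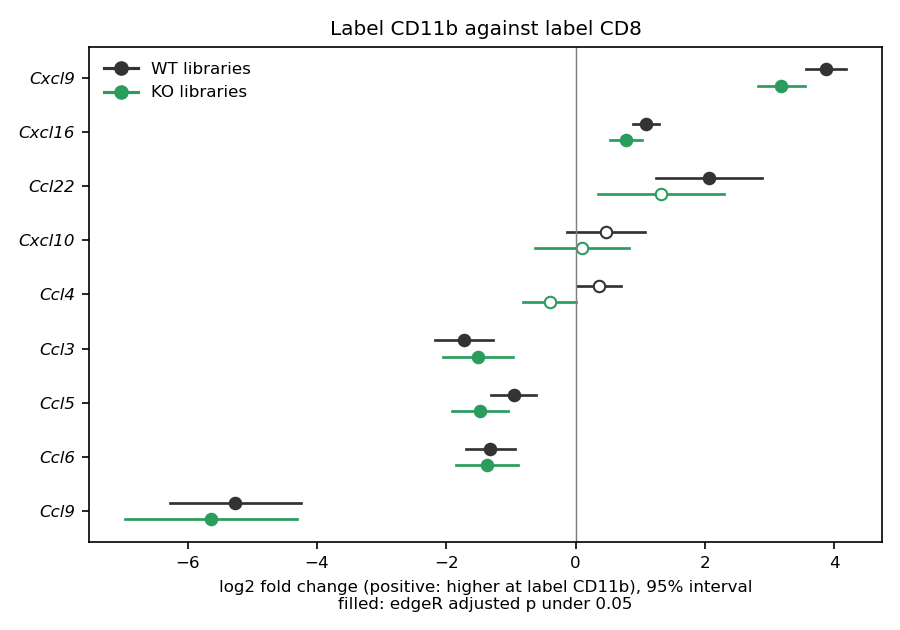
Log2 fold change of label CD11b against label CD8 for the 9 tested chemokine ligands in WT and KO libraries, with 95% intervals and filled points where the edgeR adjusted p was under 0.05. Cxcl9 stands highest at 3.87 in WT and Ccl9 lowest at −5.26, while the intervals of Cxcl10 include 0.

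**Figure D3:**
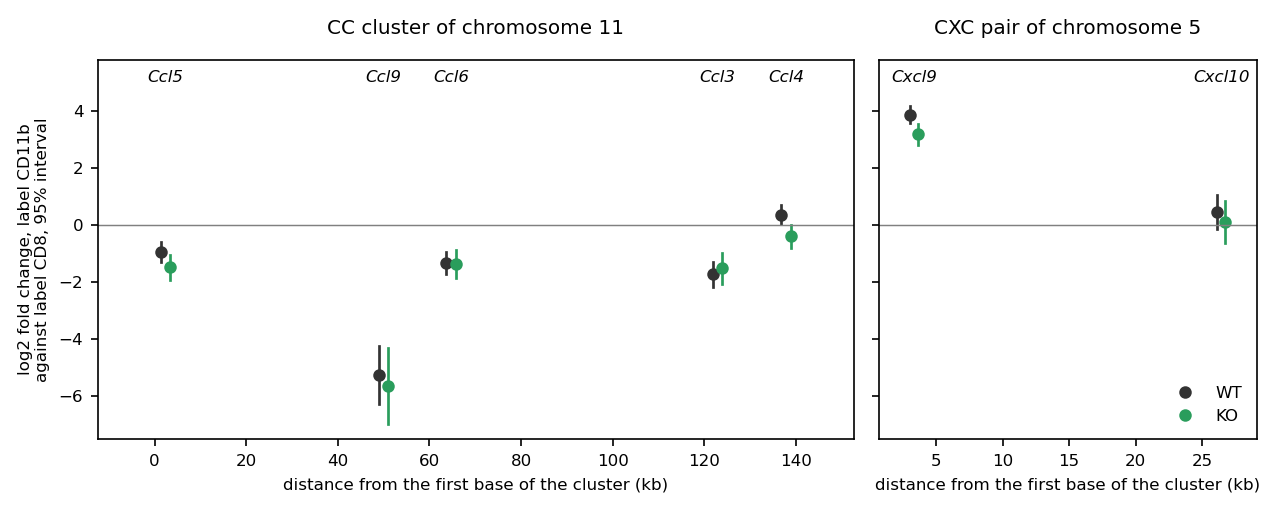
The same log2 fold changes and 95% intervals by distance along the 2 gene clusters in kb. In the chromosome 11 cluster Ccl5, Ccl9, Ccl6 and Ccl3 lie below 0, and of the chromosome 5 pair Cxcl9 lies at 3.87 and Cxcl10 at 0.47 in WT.

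Some markers of other cells differed with the label, in a WT comparison that called 13.9% of all genes higher and 15.8% lower. The 8 markers of red pulp macrophages summed to 139 to 176 CPM in CD11b WT and 244 to 324 CPM in CD8 WT, with 5 called lower and 1 higher at the label CD11b. Adgre1 alone stood at 0.371 to 4.17 and 87.9 to 131 CPM in these groups, and 3 of the 8 had a positive log2 fold change. The 6 monocyte markers summed to 37.4 to 53.0 CPM in CD11b WT and 311 to 397 CPM in CD8 WT, with 3 called lower. Csf1r alone stood at 13.4 to 22.7 and 242 to 340 CPM in these groups, and 1 of the 6 had a positive log2 fold change. The 6 markers of B cells summed to 224 to 273 CPM in CD11b WT and 248 to 665 CPM in CD8 WT, with 4 called lower. The 6 markers of plasmacytoid dendritic cells summed to 99.4 to 160 CPM in CD11b WT and 93.8 to 105 CPM in CD8 WT, so those groups overlapped. Of these markers, 3 were called higher and 0 lower at the label CD11b. The part of any of these cells in the levels of the ligands was not tested. Markers of natural killer cells summed to at most 7.04 CPM, those of neutrophils to at most 2.16 CPM and those of T cells to at most 22.1 CPM in any library.

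The next comparisons ask what loss of Atg16l1 changes in these genes. At the label CD11b, 0 of the 9 tested genes were called by edgeR, against 0.193% of all genes, and 3 had an unadjusted p under 0.05. By that p, Ccl6, Ccl4 and Ccl5 ranked 120, 287 and 752 among the 14528 genes tested. At the label CD8, 0 of the 9 were called, against 0.172% of all genes, and 2 had an unadjusted p under 0.05. There Cxcl9 and Ccl6 ranked 58 and 151. The share of all genes under that unadjusted threshold was not counted, here or below. DESeq2 and limma-voom called 0 of the 9 at either label. The median log2 fold change of the 9 genes was −0.43 at the label CD11b and 0.16 at the label CD8, and that of all genes tested was −0.0073 and 0.00029. The medians of the 9 are the values of Ccl5 and Cxcl10, neither of which was called.

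Ccl6 had the same direction at both labels. The CD11b KO libraries, at 11.9 and 11.1 CPM, lay below all CD11b WT libraries, whose lowest was 16.1 CPM, and the CD8 KO libraries, at 26.7 and 32.8 CPM, lay below all CD8 WT libraries, whose lowest was 42.7 CPM. Of all genes, 10.1% were lower in every KO library at the label CD11b and 11.9% at the label CD8. The log2 fold change was −0.69 ± 0.22 at the label CD11b (edgeR adjusted p = 0.432) and −0.64 ± 0.21 at the label CD8 (edgeR adjusted p = 0.377), and neither passed. The mean KO effect over both labels, a comparison added after the data were seen, was −0.67 ± 0.15, a 1.59-fold lower level in KO (edgeR adjusted p = 0.0364). In that comparison 0.406% of all genes and 1 of the 9 chemokine ligands were called. The call was lost with limma-voom (adjusted p = 0.0973) and with the edgeR fit that leaves out CD8 WT 1 (adjusted p = 0.119), CD8 WT 2 (0.0565), CD8 WT 3 (0.0584), CD8 KO 1 (0.119), CD11b WT 3 (0.0788) or CD11b KO 2 (0.0717).

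Cxcl9 was higher in both CD8 KO libraries, at 18.7 and 23.0 CPM, than in all CD8 WT libraries, whose highest was 17.0 CPM; 12.1% of all genes were higher in every KO library there. The log2 fold change was 0.65 ± 0.17 at the label CD8 (edgeR adjusted p = 0.137). With 1 library left out, the effect spanned 0.49 to 0.86 and the edgeR adjusted p ran from 0.00843 (without CD8 KO 1) to 1 (without CD8 KO 2). At the label CD11b, where Cxcl9 was abundant, the groups overlapped and the log2 fold change was −0.04 ± 0.14 (edgeR adjusted p = 0.993). The difference between these genotype effects was −0.69 ± 0.22 (edgeR adjusted p = 0.749).

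Ccl4 had estimated genotype effects of unlike sign, neither of which passed. At the label CD11b both KO libraries lay below the WT libraries, with a log2 fold change of −0.50 ± 0.18 (edgeR adjusted p = 0.590), and at the label CD8 the groups overlapped, with a log2 fold change of 0.26 ± 0.18 (edgeR adjusted p = 0.912). The difference of the effects was −0.76 ± 0.26 (edgeR adjusted p = 0.749). With each of edgeR, DESeq2 and limma-voom, 0 of the 9 genes had a called difference of genotype effects, against 0.0482% of all genes by edgeR, and 2 had an unadjusted p under 0.05.

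The other tested genes had smaller or less precise KO effects. Ccl5 gave −0.43 ± 0.20 at the label CD11b (edgeR adjusted p = 0.741), with overlapping groups, and 0.10 ± 0.19 at the label CD8. Ccl3 gave 0.28 ± 0.25 at the label CD11b, where both KO libraries lay above the WT libraries by a small margin (10.3% of all genes did so), and 0.06 ± 0.23 at the label CD8. Ccl9 gave −0.53 ± 0.74 and −0.15 ± 0.40 at these labels. Cxcl16 was measured most narrowly, with −0.12 at the label CD11b (95% interval −0.35 to 0.10) and 0.19 at the label CD8 (−0.04 to 0.41). Ccl22 gave −0.43 (−1.29 to 0.43) and 0.30 (−0.61 to 1.22), and Cxcl10 gave −0.21 (−0.88 to 0.46) and 0.16 (−0.51 to 0.83), so a 1.5-fold change in at least 1 direction lies inside each of these intervals.

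**Figure D4:**
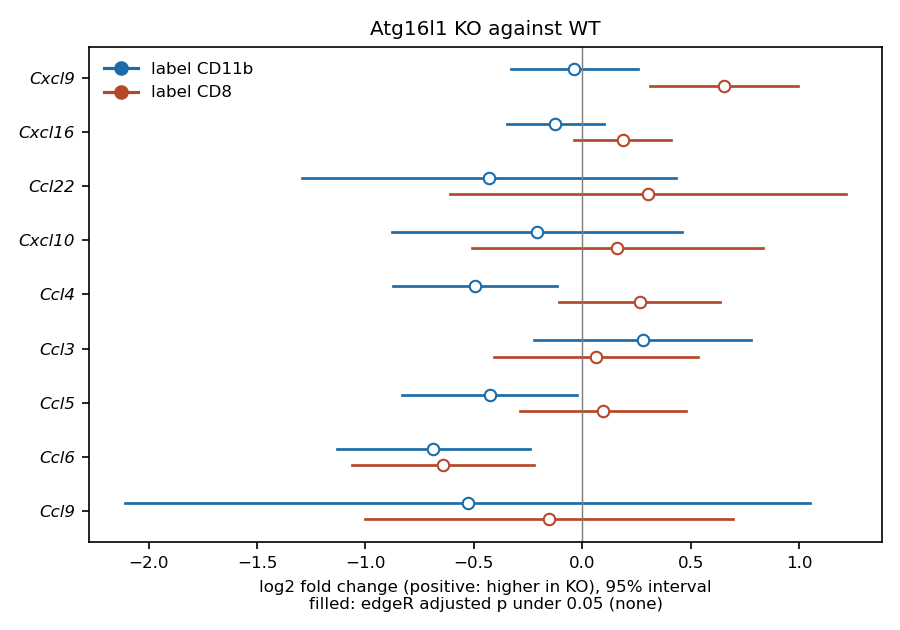
Log2 fold change of Atg16l1 KO against WT for the 9 tested chemokine ligands at each label, with 95% intervals and open points where the edgeR adjusted p was 0.05 or more. No point is filled, Ccl6 lies at −0.69 and −0.64, and Cxcl9 lies at 0.65 at the label CD8.

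Some marker sums differed with genotype at the label CD8. Red pulp macrophage markers summed to 244 to 324 CPM in CD8 WT and 405 to 406 CPM in CD8 KO. The 8 markers of mature dendritic cells, a list that holds Ccl22, summed to 1327 to 1441 CPM in CD8 WT and 1465 to 1627 CPM in CD8 KO, with 0 called by edgeR and 4 at an unadjusted p under 0.05. B cell markers summed to 248 to 665 CPM in CD8 WT and to 582 and 1600.5 CPM in CD8 KO 1 and 2, so those groups overlapped. The 15 immediate early genes, which respond to cell handling among other stimuli, summed to 13036 to 17347 CPM in CD8 WT and 10705 to 12911 CPM in CD8 KO, and to 8456 to 10257 CPM in CD11b WT and 7871 to 8131 CPM in CD11b KO. CD8 WT 1 had the highest such sum and also the highest Ccl3 and Ccl6 levels of all libraries. The part of these differences in the chemokine values was not tested. A fit without CD11b WT 1 and CD8 KO 2, added after the data were seen, gave a mean Ccl6 KO effect of −0.78 by edgeR. CD11b WT 1 had the lowest Ccl6 of its group (16.1 CPM) and CD8 KO 2 the higher of its group (32.8 CPM). Leaving them out therefore widens the gap, and the fit is no test of the marker or handling differences.

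Levels of different genes were compared as CPM per kb of the principal transcript. In CD11b WT the order was Cxcl16 (139 ± 9.41 CPM per kb, SD, n = 3), Ccl4 (78.8 ± 10.3), Ccl5 (68.0 ± 21.5), Cxcl9 (67.0 ± 9.14), Ccl22 (27.9 ± 9.24), Ccl3 (13.8 ± 0.301), Cxcl10 (12.9 ± 2.75), Ccl6 (12.9 ± 1.46), Ccl9 (0.270 ± 0.208) and Ccl17 (0.246 ± 0.426). The ranges of Ccl4, Ccl5 and Cxcl9 overlapped from one to the next, as did those of Ccl3, Cxcl10 and Ccl6 and those of Ccl9 and Ccl17. In CD8 WT, Ccl5 led (132 ± 17.6 CPM per kb), followed by Cxcl16 (65.5 ± 9.17), Ccl4 (61.5 ± 14.3), Ccl3 (46.0 ± 13.2) and Ccl6 (32.3 ± 4.16), of which neighbours after Ccl5 overlapped. Below them stood Ccl9 (10.9 ± 2.54), Cxcl10 (9.37 ± 2.43), Ccl22 (6.66 ± 2.47) and Cxcl9 (4.61 ± 1.12), again with overlapping neighbours, and then Ccl17 (0.770 ± 0.262). Cxcl9 thus held rank 4 in CD11b WT and rank 9 in CD8 WT. Over all exons instead of 1 transcript, the level of Ccl5 in CD11b WT was 37.7 CPM per kb and that of Cxcl10 was 6.29 CPM per kb, and Cxcl9 held rank 3 there. In CD8 WT the mean level of Ccl5 over all exons was 73.2 CPM per kb, still the highest mean, beside 61.5 for Ccl4 and 58.5 for Cxcl16. The highest CD8 WT library of Ccl4 stood at 75.6, above that mean of Ccl5, so the lead of Ccl5 depends on the length used.

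**Figure D5:**
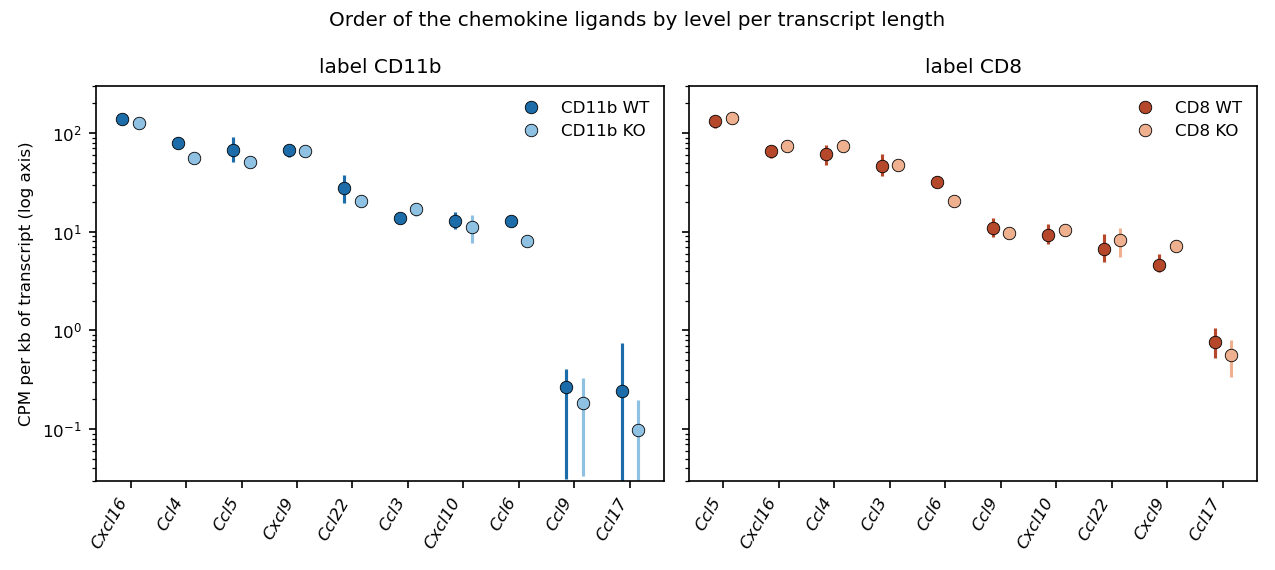
Mean CPM per kb of principal transcript on a log axis for each chemokine ligand, with lines from the lowest to the highest library (lines reaching the lower edge include libraries at 0 or below the axis), ordered by the WT level at each label. Cxcl16 leads at the label CD11b with 139 and Ccl5 leads at the label CD8 with 132.

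The 10 genes together made up 700 to 828 CPM in CD11b WT, 658 to 702 CPM in CD11b KO, 385 to 471 CPM in CD8 WT and 469 to 474 CPM in CD8 KO. Cxcl9 gave 25.3% of those reads in CD11b WT and 27.8% in CD11b KO, against 3.02% in CD8 WT and 4.42% in CD8 KO. Ccl5 gave 4.70%, 3.97%, 15.9% and 15.9% in the same order.

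Receptors of these ligands and genes for their processing or handling were counted from 2 lists. Of 9 receptors and scavenging receptors, 7 were tested, and in WT 1 was higher and 3 were lower at the label CD11b. Of all genes tested, 13.9% were called higher and 15.8% lower there. Cxcr3, the receptor of CXCL9 and CXCL10, stood at 10.8 to 13.9 CPM in CD11b WT and 0.181 to 2.37 CPM in CD8 WT (edgeR adjusted p = 0.00357). Ccrl2, a receptor that binds without signalling, was lower by a log2 fold change of −2.17 ± 0.26 (edgeR adjusted p = 6.99e-05), and Ackr1 had 0 counts in all 3 CD11b WT libraries and 2.08 to 6.69 CPM in CD8 WT (edgeR adjusted p = 1.69e-05). Ccr4, the receptor of CCL17 and CCL22, had 0 counts in all 10 libraries, and Cxcr6 stood at or below 0.604 CPM.

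Of 5 genes listed for processing or handling, 1 was higher and 2 were lower at the label CD11b in WT, against 13.9% and 15.8% of all genes. The higher gene was Cd74, the invariant chain of MHC class II and not an enzyme that cleaves chemokines (log2 fold change 0.25 ± 0.06, edgeR adjusted p = 0.00111). Adam10, a protease that sheds CXCL16, stood at 67.8 to 84.6 CPM in CD11b WT and 95.9 to 99.9 CPM in CD8 WT (log2 fold change −0.34 ± 0.12, edgeR adjusted p = 0.0265). Adam17, another sheddase, and Dpp4, a peptidase that trims chemokines, were not called. Mmp9, a gelatinase that can cleave chemokines, had 0 counts in the CD11b WT libraries, 19.4 to 32.0 CPM in CD8 WT and 3.83 to 3.95 CPM in CD8 KO. It fell in KO at the label CD8 by 2.72 on the log2 scale (SE 0.42, edgeR adjusted p = 0.000619). None of the receptors was called for genotype by edgeR, with 1 of the 7 at an unadjusted p under 0.05 at the label CD11b and 0 at the label CD8.

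Genes listed for the pathways known to induce these ligands, inhibitors of those pathways included, were mostly higher at the label CD8. Their transcripts do not measure the activity of a pathway. Of 11 genes of the interferon axis, 6 were lower at the label CD11b in WT and 0 were higher, with a median log2 fold change of −0.28. Irf1, an interferon-induced transcription factor, did not pass (edgeR adjusted p = 0.112). Of 9 genes of the NF-kappaB axis, 8 were lower and 0 higher, with a median of −0.91. Among them were Nfkbie, which encodes an inhibitor of NF-kappaB (log2 fold change −1.87 ± 0.08), and Relb, a subunit (−1.45 ± 0.09). Of 6 genes of the IL-4 and STAT6 axis, 4 were lower and 0 higher, among them Irf4 (−2.68 ± 0.12) and Il4ra (−1.42 ± 0.09). Irf4 was also on the list of markers of type 2 conventional dendritic cells. In all, 18 of these 26 genes were lower, against 15.8% of all genes tested, while 3 of the 9 ligands were higher and 4 lower. For genotype, the calls in these lists numbered 0 at the label CD11b and 1 at the label CD8, against 0.193% and 0.172% of all genes. The 1 call was Irf4, which rose by a log2 fold change of 0.67 ± 0.12 in KO (edgeR adjusted p = 0.00503).

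The other chemokine ligands were scarce. Of 29 further ligand genes, 6 passed the filter, and all 29 summed to 30.6 to 42.5 CPM in CD11b WT and 12.4 to 18.4 CPM in CD8 WT. Cxcl2, a ligand of CXCR2 on neutrophils, was the 1 called, at 14.1 to 24.8 CPM in CD11b WT and 3.07 to 8.30 CPM in CD8 WT (log2 fold change 1.92 ± 0.34, edgeR adjusted p = 4.19e-05). Of all genes tested, 13.9% were called higher in the WT label comparison. The KO libraries had 11.2 to 13.1 CPM of Cxcl2 at the label CD11b and 5.39 to 7.98 CPM at the label CD8, and that difference did not pass (edgeR adjusted p = 0.142).

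Likeness of patterns was measured as the root mean square difference of log2 CPM, each gene centred on its own mean, over the 10 libraries. Within the set the nearest pair was Ccl5 with Ccl6 (0.353), then Ccl4 with Cxcl10 (0.375), and the farthest was Ccl9 with Cxcl9 (4.61), 2 genes called in opposite directions. Among all tested genes, the nearest to Cxcl9 were Cd36 (0.249), Fndc7 (0.268) and Sh3pxd2b (0.296), and the nearest to Cxcl16 were Aff1 (0.108), Nampt (0.112) and Spop (0.119). Gbp8 (0.119), Plcl1 and Tec were nearest to Ccl3, Clec2d (0.161), Qrsl1 and Klf8 to Ccl4, and Ctso (0.159), Spred1 and Foxp4 to Ccl5. Hsh2d (0.209), Satb1 and Lcp2 were nearest to Ccl6, and Dscaml1 (0.270), Chst11 and Txn1 to Ccl22. Mier2 (0.158), Ptma and Dpm1 were nearest to Cxcl10, whose own variation was small. Ccl9 had no gene nearer than Adgre1 (0.517), followed by Ace and Csf3r. These distances describe 10 libraries that fall mainly into 2 label groups, and genes that separate the labels by a like amount are near each other.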

How the data were processed

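Total RNA of sorted spleen dendritic cells was sequenced in 10 libraries made with a stranded kit for small inputs, per the labels' protocols. The aligner was STAR 2.5.0a on GRCm38, per the submitters' processing notes. The deposited values are raw read counts per gene; the 4 lines for reads given to no gene were left out of library sizes (59.2% to 67.8% of reads were not counted to a gene). The reverse-strand counts were used, whose sum was 16.1 times that of the other strand. Symbols and positions came from GENCODE M21, and promoter windows from RefSeq (7 of the 10 genes had one).

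CPM used TMM library sizes. Genes passing filterByExpr (14528) were fitted in edgeR 4.0.16 by a robust quasi-likelihood model with 4 group means, with Benjamini-Hochberg adjustment over all of them and a threshold of 0.05. All groups share 1 estimate of spread. The script was tested on simulated data. P-values measure the spread between libraries, and counting floors cover counting error only. Named genes were the 10 ligands, label checks, called other ligands, listed receptors and processing genes, up to 4 genes of each other list, and for each tested ligand the 3 genes of most like profile. Irf1 was picked after its values were seen, and a few listed genes are not reported here by name. Alternatives were RLE factors, other filters, unstranded counts, DESeq2 1.42.0, limma-voom (limma 3.58.1), fits restricted to the groups compared, a replicate block and each library left out. The members and lists were chosen with earlier results of these data known.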

Additional observations from a re-analysis of the deposited data

How the results depend on the processing

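The 13 called label effects kept their direction and call in all 260 alternative values, left-out libraries included. With no filter on low counts, where Ccl17 was fitted too, 1 of the 10 ligands (Cxcl9) was called for KO against WT at the label CD8. Leaving out 1 WT library gave 0 to 1 with the usual filter. For the mean KO effect over both labels, limma-voom and the replicate block called 0 and leaving out 1 library gave 0 to 1.

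Effects near 0 changed sign, and the cause was not tested. Cxcl9 in KO against WT at the label CD11b was 0.0040 with limma-voom. Cxcl10 between the labels in KO was −0.044 with unstranded counts and −0.013 with limma-voom.

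Without CD11b WT 1 and CD8 KO 2, an alternative added after seeing the data, the KO effects on Cxcl9 at the label CD11b (0.057) and Ccl3 at the label CD8 (−0.020), the differences of KO effects for Ccl6 (0.018) and Ccl9 (0.080) and the label effect on Cxcl10 in KO (−0.045) changed sign. With 1 library left out, KO effects at the label CD11b spanned −2.94 to 0.24 (Ccl9), −0.14 to 0.061 (Cxcl9), −0.74 to 0.18 (Cxcl10) and −0.28 to 0.017 (Cxcl16). At the label CD8 they spanned −0.074 to 0.32 (Ccl3), −0.0034 to 0.19 (Ccl5), −0.29 to 0.048 (Ccl9), −0.28 to 0.71 (Ccl22) and −0.014 to 0.39 (Cxcl10). Differences of KO effects spanned −0.039 to 0.42 (Ccl3), −0.18 to 0.11 (Ccl6), −2.79 to 0.40 (Ccl9) and −0.90 to 0.022 (Cxcl10), and the label effect on Cxcl10 in KO spanned −0.43 to 0.49. A lone KO library was assumed to vary like the other groups.

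The same replicate number in different groups is not stated to mark a shared animal, and the deviations of same-numbered libraries correlated at 0.0182 to 0.0491 between labels in WT, so the numbers were not taken as pairs. Each WT library correlated best with its own number. With a replicate block the mean KO effect on Ccl6 was −0.67 (edgeR adjusted p = 0.0676) and that of the label on Ccl22 in KO was 1.38 (edgeR adjusted p = 8.06e-06).

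Counts of all genes called moved by over 1.5 times from 28 for the CD11b genotype comparison (62 with no filter, 15 with limma-voom, 17 with the groups compared alone), from 25 for the CD8 one (105, 63 and 78, and 55 with DESeq2), from 7 for the difference (25 with no filter, 12 with DESeq2, 4 with limma-voom, 16 with the replicate block, 3 without robust estimation) and from 59 for the mean effect (155 with no filter, 89 with DESeq2). Without CD11b WT 1 and CD8 KO 2 the first was 54. With 1 library left out the CD8 count spanned 15 to 100, that for the difference 6 to 28 and that for the mean effect 42 to 119.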

Other observations

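Counting without regard to strand gave lower counts for 2 of the ligands. Cxcl16 had 31765 reverse-strand counts over the 10 libraries and 24869 unstranded counts, and Cxcl10 had 1384 and 1216. Zmynd15 lies over Cxcl16 and Art3 over Cxcl10 on the opposite strand. E230016K23Rik lies over Ccl6 in the same way, and Ccl6 had 3068 and 3107 counts. Ccl4 had 5152 and 5167 counts and overlapped no other gene.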
